A study of Homo sapiens with 6 samples.

Results

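The epidermal growth factor (EGF) receptor family was followed through 10 genes: the ligand genes HBEGF, AREG, EREG, TGFA, BTC and NRG1, the receptor genes EGFR, ERBB2 and ERBB3, and ERRFI1, which encodes an intracellular inhibitor of the receptors. Its members were all probe sets whose platform annotation gives 1 gene symbol that is on this list. The rule found 37 probe sets of 9 of the 10 genes, among 18132 genes named this way on the array. No probe set was named for AREG, the amphiregulin gene, and it was not analysed here. The 6 samples were of ARPE-19, an established human retinal pigment epithelial cell line, with 1 array each. By the treatment protocol all cells received a GFP plasmid and, 48 h later, either 10 mU/ml glucose oxidase for 3 h (the 3 h group, 3 arrays) or no enzyme (the 0 h group, 3 arrays). Glucose oxidase releases hydrogen peroxide while it consumes glucose. The sample descriptions instead assign a GFP plasmid to the 0 h arrays and a GFP construct carrying alpha satellite to the 3 h arrays, so construct and enzyme cannot be told apart from the labels. It is not stated whether the replicates were separate cultures, and the p-values may then measure technical spread alone.

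Ligands of this family are made as membrane-anchored precursors, and ADAM proteases cut them free at the cell surface. A bound ligand pairs 2 receptors, which phosphorylate tyrosines in each other's tails and pass the signal to the RAS and ERK kinases, to PI3-kinase and AKT, and to STAT proteins. HB-EGF, TGF-alpha, betacellulin, epiregulin and amphiregulin bind EGFR, neuregulins bind ERBB3 and ERBB4, and ERBB2 has no known ligand of its own and acts as a partner. In retinal pigment epithelium the pathway is known for its part in proliferation, migration and wound closure.

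Across the whole table, 51.4% of 29576 probe sets tested at or above a floor of log2 4.64 differed between 3 h and 0 h at an adjusted p under 0.05 (limma, Benjamini-Hochberg). Of those tested 25.6% were higher and 25.8% lower, and 78.1% of the calls were changes under 1.5-fold. The SD of a tested probe set had a median of 0.07 at 0 h and 0.09 at 3 h (log2). Control probe sets moved with the groups as well. For all 24 poly-A spike probe sets the 3 h values were below the 0 h values (median log2 change -0.60). The same held for 17 of 18 hybridization spike probe sets (median -0.31). The actin 5′ probe set relative to the 3′ one went from -2.06 ± 0.07 to -1.20 ± 0.06 (log2, mean ± SD, n = 3). For GAPDH the same difference went from -0.39 ± 0.05 to -0.13 ± 0.04 (n = 3). These shifts run alongside each result given here, and their part in the results was not tested. Of 16 pigment epithelium markers on a list 10 were tested, 4 were under the floor, and DCT and RDH5 were not analysed here. The keratin genes KRT8 and KRT18 had 0 h means of 11.5 and 12.2, and MITF and OTX2, transcription factors of this epithelium, 8.15 and 8.37. The visual cycle genes RPE65 (3.48) and RLBP1 (4.20), which define the mature epithelium, were under the floor, as were LRAT and TYRP1. Of those 10 markers 4 rose (KRT8 by 0.40, KRT18 by 0.34, MITF by 0.33 and OTX2 by 0.19) and SERPINF1 fell by 0.40. That is 50% called, near the 49.7% of 12221 genes read by their brightest probe set. Among 7 tested markers of other cells 2 fell (28.6%), PDE6B by 0.36 and SYT1 by 0.22, and 5 did not pass, with CD3E at 0.23 and VWF at -0.18. The leukocyte gene PTPRC (2.44), CD14 (3.54) and CDH5 (3.22) were under the floor. The 7 tested markers of other cells had 0 h means from 4.997 (CD3E) to 6.33 (SYT1). The pigment epithelium markers TYR (5.31) and SERPINF1 (6.12) read in the same range, so reaching the floor did not by itself separate these lists. At 0 h both BTC probe sets (6.21 and 6.01) lay in that range. Among other called probe sets the same held for TGFA 11745160_s_at (5.64), NRG1 11740544_a_at (5.44) and ERBB2 11750611_a_at (5.05). It also held for EGFR 11751983_a_at (5.57), 11725102_at (5.59) and 11733760_a_at (5.78). EGFR 11742247_a_at (4.96) read below that range, and EGFR 11725104_a_at and 11725103_s_at (7.37 each) read above it.

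In the EGF receptor family the receptor gene EGFR and the ligand gene HBEGF were higher at 3 h on every probe set that was bright enough to test, 6 of 6 and 2 of 2, with 5 of 6 for EGFR under quantile normalization or median centring. The ligand gene BTC was lower on 2 of 2. In each of these genes 1 probe set lost its call under some alternatives, EGFR 11733760_a_at in 7 of 12, BTC 11762566_at in 7 of 12 and HBEGF 11719898_s_at in 2 of 13. TGFA, NRG1 and ERBB2 gave probe sets that disagreed, ERRFI1 did not pass the test, and EREG and ERBB3 stayed under the floor in both groups. In RNA from bulk cells, more cells carrying a transcript and more RNA per cell cannot be told apart. Of the 37 probe sets 24 reached the floor, and TGFA 11745159_a_at did so only through its 3 h values and is left out of the counts here. Of the 23 others 11 were higher, 4 lower and 8 did not pass (65.2% called, against 51.4% over the whole table and 51.3% of the 28714 probe sets with both group means at or above the floor). The upward share was 47.8% against 25.4% of those 28714, but the 6 EGFR probe sets are readings of 1 gene and are not independent of each other. With each gene read by its brightest probe set, 2 of 7 tested genes were higher (EGFR, HBEGF), 2 lower (BTC, NRG1) and 3 did not pass, against 19.9% higher and 29.8% lower among 12221 genes. The median log2 change of the 23 was 0.14, and that of the 28714 was 0.0037. The 3 h and 0 h values did not overlap for 16 of the 23 (69.6%), against 60.6% over the whole table and 60.4% of the 28714. The count of lower probe sets was 2 without replicate 1 at 0 h and 2 without replicate 2 at 0 h.

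The proximal promoters of EGFR, HBEGF and BTC are shown because these are the members whose tested probe sets were all called and all called in one direction. Each is the 250 bases before the gene's start in RefSeq on GRCh38.p14, read 5′ to 3′ on the gene's strand, and capitals mark the GC box GGGCGG on either strand. Entries were found for 8 of the 10 members. EGFR lies on the plus strand (chr7:55018767-55019016), HBEGF on the minus strand (chr5:140346604-140346853) and BTC on the minus strand (chr4:74794524-74794773).
EGFR: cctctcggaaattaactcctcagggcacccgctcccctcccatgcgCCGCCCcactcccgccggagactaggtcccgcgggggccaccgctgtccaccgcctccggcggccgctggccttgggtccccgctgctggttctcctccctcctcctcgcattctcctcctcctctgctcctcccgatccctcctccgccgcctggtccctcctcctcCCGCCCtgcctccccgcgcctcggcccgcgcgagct
HBEGF: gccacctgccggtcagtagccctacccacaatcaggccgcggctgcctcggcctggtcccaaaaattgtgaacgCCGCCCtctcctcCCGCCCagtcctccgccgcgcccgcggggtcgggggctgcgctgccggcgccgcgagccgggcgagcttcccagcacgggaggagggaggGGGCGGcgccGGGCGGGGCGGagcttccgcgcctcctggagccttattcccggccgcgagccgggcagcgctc
BTC: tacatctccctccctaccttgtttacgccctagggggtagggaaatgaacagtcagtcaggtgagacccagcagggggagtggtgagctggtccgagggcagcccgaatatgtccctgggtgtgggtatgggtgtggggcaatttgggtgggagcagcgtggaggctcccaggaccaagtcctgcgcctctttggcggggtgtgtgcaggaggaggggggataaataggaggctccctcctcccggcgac
The EGFR window holds 2 GC boxes and is 73.6% G and C. The HBEGF window holds 5, of which 2 share a base, at 76.4% G and C. In the BTC window the count was 0, at 62.0% G and C. A GC box was present in 42.6% of 35116 promoter windows of this length, and their median G and C content was 58.0%. The AP-1 motif TGANTCA and the EGR motif GCGTGGGCG, searched on both strands, had 0 matches in these 3 windows, and were present in 6.57% and 0.72% of all windows. A second RefSeq start of EGFR, inside the gene, has a window with 2 AP-1 motifs, 2 TATAAA motifs (10.7% of all windows hold one) and 38.8% G and C. These matches are descriptions of letters and were not tested against expression.

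HBEGF encodes heparin-binding EGF-like growth factor, a ligand of EGFR and ERBB4. Its brighter probe set, 11719898_s_at, read 10.17, 10.18 and 10.07 on the 0 h arrays and 10.40, 10.41 and 10.29 on the 3 h arrays (log2). All 3 h values lay above all 0 h values. The rise was 0.23 (SE 0.06, 95% interval 0.08 to 0.37, n = 3, limma adjusted p = 0.0178), and its suffix marks probes shared between transcripts. The other probe set, 11755981_a_at, read 6.98, 7.08 and 7.23 at 0 h and 7.62, 7.73 and 7.68 at 3 h. It rose by 0.58 (SE 0.08, adjusted p = 0.000504), again without overlap. Of all tested probe sets 6.78% had an upward change at least as large as this one, and 24.8% one at least as large as that of 11719898_s_at. The brighter probe set lost its call with 0 h replicate 3 removed (0.19, adjusted p = 0.0643) and with 3 h replicate 2 removed (0.20, adjusted p = 0.0537), and its adjusted p ranged from 0.00112 to 0.0643 over the alternatives. The mean of both probe sets rose by 0.40.

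TGFA encodes transforming growth factor alpha, which binds EGFR alone. Its brightest probe set, 11728302_at, read 8.44, 8.52 and 8.40 at 0 h and 8.44, 8.43 and 8.42 at 3 h. These groups overlap, and the difference was -0.03 (95% interval -0.16 to 0.11, adjusted p = 0.734). A change of more than about 0.16 in either direction therefore lies outside the interval. The probe set 11728303_at gave the same picture, at -0.03 (95% interval -0.21 to 0.15, adjusted p = 0.771). By contrast 11745160_s_at read 5.56, 5.75 and 5.60 at 0 h and 6.10, 6.38 and 6.18 at 3 h, with no overlap. Its rise of 0.58 had an SE of 0.09 and an adjusted p of 0.000876. The dimmest, 11745159_a_at, was at 4.54 ± 0.16 at 0 h, under the floor, and at 4.92 ± 0.25 at 3 h (n = 3), so it reached the floor only through its 3 h values, and its difference of 0.39 is given without a test. It was designed on the same transcript record as 11745160_s_at, and the 2 brightest on other records. Taken within each array, 11745160_s_at differed from 11728302_at by -2.88 to -2.77 at 0 h and by -2.34 to -2.05 at 3 h. Those ranges do not overlap, and the exact two-sided permutation p of 0.1 is the smallest that 3 against 3 arrays allow. The mean of all TGFA probe sets rose by 0.23, but it includes 11745159_a_at and is given without a test. The reading of TGFA therefore depends on the probe set, with -0.03 for the brightest and 0.58 for 11745160_s_at.

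BTC encodes betacellulin, a ligand of EGFR and ERBB4. The probe set 11740532_s_at read 6.12, 6.26 and 6.26 at 0 h and 5.995, 5.83 and 5.93 at 3 h, so that every 3 h value was below every 0 h value. It fell by 0.30 (SE 0.07, n = 3, adjusted p = 0.00795), which is 1.23-fold. The second, 11762566_at, read 6.07, 6.05 and 5.90 at 0 h and 5.52, 5.94 and 5.67 at 3 h. Here the groups overlap, since replicate 2 at 3 h lies above replicate 3 at 0 h. It fell by the same 0.30 (SE 0.11), with an adjusted p of 0.0485 that lies just inside the threshold. It was not called with any one of the 0 h arrays removed (-0.35 to -0.26) or with 3 h replicate 1 or 3 removed (-0.20, -0.28), with array weights (-0.27) or with no filter on dim probe sets, and its adjusted p ran from 0.00749 to 0.136 over the alternatives. Of all tested probe sets 18.6% had a downward change at least as large.

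NRG1 encodes neuregulin 1, the ligand of ERBB3 and ERBB4, and is spliced into many forms. Of its 8 probe sets 5 were tested. The 3 brightest were all lower on average at 3 h, and 2 of them passed. The brightest, 11727215_a_at, read 9.39, 9.38 and 9.33 at 0 h and 9.20, 9.17 and 9.20 at 3 h. It fell by 0.18 (SE 0.05, n = 3, adjusted p = 0.0246). The groups do not overlap, yet the call was lost with 0 h replicate 1 or 2 (-0.17, -0.17) or 3 h replicate 2 (-0.17) removed, and with no filter on dim probe sets (adjusted p = 0.0647). With 11740346_a_at the values were 9.04, 9.05 and 8.99 at 0 h and 8.68, 8.72 and 8.73 at 3 h, a fall of 0.32 (SE 0.06, adjusted p = 0.00182). The probe set 11740347_x_at, on the same transcript record, differed by -0.14 (95% interval -0.29 to 0.01, adjusted p = 0.115), and it passed with 0 h replicate 3 removed (-0.20). A dimmer probe set went the other way. For 11740544_a_at the values were 5.27, 5.53 and 5.53 at 0 h and 5.59, 5.99 and 5.86 at 3 h, a rise of 0.37 (SE 0.11, adjusted p = 0.0264). It did not pass with 0 h replicate 1 (0.28) or 3 h replicate 2 or 3 (0.28, 0.35) removed. Within arrays its difference from the brightest NRG1 probe set ran from -4.12 to -3.80 at 0 h and from -3.60 to -3.18 at 3 h (exact two-sided permutation p = 0.1, the smallest possible). The fifth, 11741304_a_at, differed by 0.09 (adjusted p = 0.378). The 3 untested probe sets were under the floor. Of these 11755968_a_at was at 3.77 ± 0.27 at 0 h and 4.16 ± 0.05 at 3 h (n = 3), without overlap, 11745036_at at 4.37 and 4.33, and 11742478_a_at at 2.54 and 2.49. The direction of NRG1 therefore depends on the probe set. The mean of all 8, the 3 under the floor included, differed by 0.01 (limma adjusted p = 0.818).

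EREG encodes epiregulin, a ligand of EGFR and ERBB4. All 4 of its probe sets were under the floor, with values from 1.86 to 3.56 over the 6 arrays. The means at 0 h and 3 h were 3.40 and 3.49 for 11732718_at, 3.03 and 2.96 for 11732720_a_at, 2.58 and 2.55 for 11763822_at, and 2.03 and 2.18 for 11732719_at. None was tested, and no level can be read from signal this dim.

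**Figure D1:**
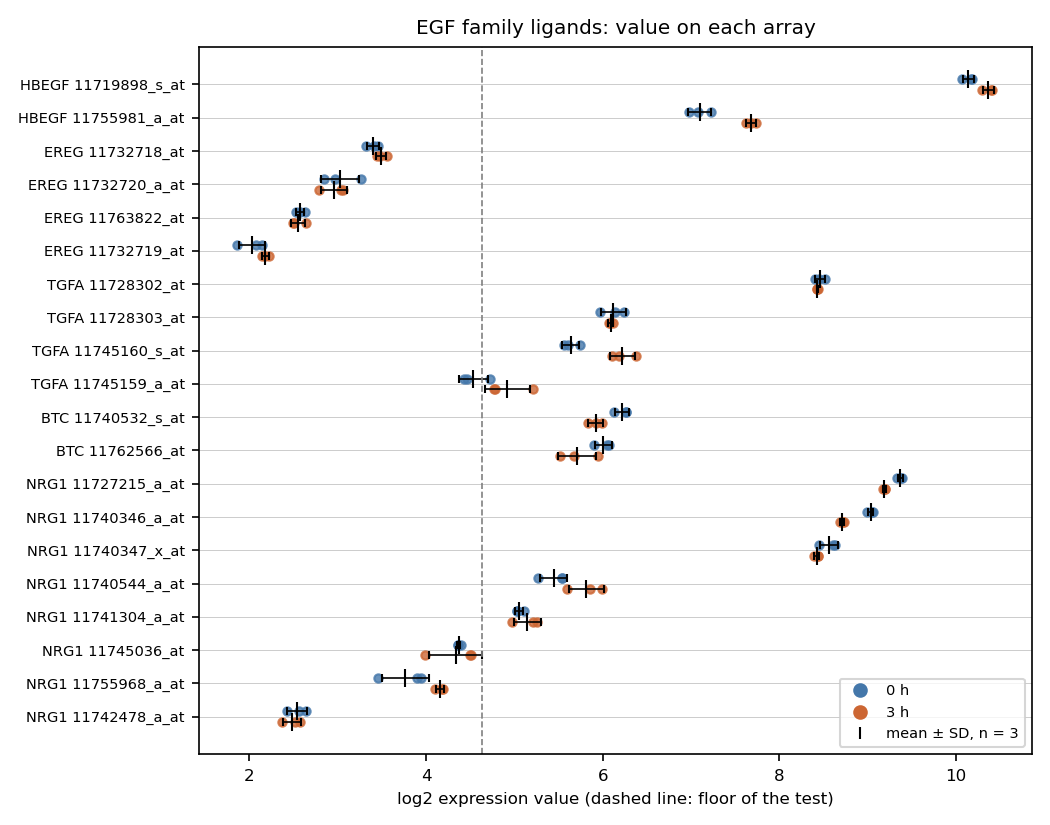
Log2 expression value (horizontal axis) of each probe set of the ligand genes on each of the 3 arrays at 0 h (blue) and 3 at 3 h (orange), with black marks for mean ± SD (n = 3) and a dashed line at the floor of 4.64. HBEGF separates upward and BTC 11740532_s_at downward, the probe sets of TGFA and NRG1 disagree, and all 4 EREG probe sets lie left of the floor.

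EGFR, the receptor for EGF, HB-EGF, TGF-alpha and other ligands, had the largest changes among the tested probe sets of the family. The probe set 11751983_a_at read 5.54, 5.65 and 5.52 at 0 h and 6.60, 6.69 and 6.98 at 3 h. The lowest 3 h value stood well clear of the highest 0 h value. It rose by 1.19, or 2.28-fold (SE 0.10, 95% interval 0.96 to 1.42, n = 3, adjusted p = 7.2e-05), and 0.636% of all tested probe sets had an upward change at least as large. The brightest, 11725104_a_at, read 7.37, 7.41 and 7.34 at 0 h and 8.49, 8.21 and 8.64 at 3 h. Its rise was 1.07, or 2.11-fold (SE 0.10, adjusted p = 0.000124). The 3 h arrays spread more than the 0 h arrays here, with an SD of 0.21 against 0.04, and replicate 2 was the lowest of them.

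Other EGFR probe sets rose by less. For 11725103_s_at the values were 7.39, 7.42 and 7.30 at 0 h and 7.99, 7.81 and 7.97 at 3 h, a rise of 0.55 (SE 0.07, adjusted p = 0.000418). For 11725102_at, on the same full-length transcript record, the rise was 0.57 (SE 0.12, adjusted p = 0.00423), from 5.37, 5.84 and 5.56 to 6.27, 6.04 and 6.18. Neither had overlapping groups. Of 3 probe sets whose listed RefSeq record is a shorter transcript, with a product that lacks the kinase domain, 11742247_a_at rose by 0.65 (SE 0.11, adjusted p = 0.00177), from 4.86, 5.05 and 4.99 to 5.52, 5.45 and 5.87. Another, 11733760_a_at, rose by 0.24 (SE 0.08, adjusted p = 0.0315), from 5.81, 5.68 and 5.85 to 6.14, 6.004 and 5.92. The last of them, 11738815_at, was under the floor at 2.96 ± 0.02 at 0 h and 2.94 ± 0.03 at 3 h (n = 3), as was 11762479_at at 3.12 and 3.15. The call of 11733760_a_at was the least firm of the 6. It was lost with quantile normalization (0.21), with median centring (0.21), and with replicate 1 or 2 of 0 h (0.26, 0.19) or of 3 h (0.18, 0.25) removed, and with no filter on dim probe sets, and its adjusted p ranged from 0.0199 to 0.111.

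The EGFR probe sets also differed from each other in the size of the change. At 0 h 11725103_s_at differed from 11725104_a_at by -0.03 to 0.02 on the 3 arrays. At 3 h the difference was -0.67 to -0.40, so probe sets that read alike at 0 h had separated. The ranges of the difference between a probe set and the brightest one did not overlap for 4 of the 5 other tested EGFR probe sets, and for 11 of all 17 such pairs in the family. Each of these 11 had an exact two-sided permutation p of 0.1, the smallest possible, and 0.155 after Benjamini-Hochberg adjustment over the 17 pairs. Both counts and the adjustment include the pair of TGFA 11745159_a_at, which reached the floor only through its 3 h values. Suffixes of the identifiers tell whether probes match several transcripts of a gene (_a_at) or are shared (_s_at, _x_at), and the positions of the probes along the transcripts were not used here. The mean of all 8 EGFR probe sets, the dim ones included, rose by 0.54 (adjusted p = 0.00015).

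ERBB2 encodes the partner receptor HER2. Its brightest probe set, 11736472_a_at, read 7.32, 7.28 and 7.43 at 0 h and 7.35, 7.57 and 7.35 at 3 h. The groups overlap, with a difference of 0.08 (95% interval -0.10 to 0.26, adjusted p = 0.428). The next, 11755005_a_at, differed by 0.14 (95% interval -0.04 to 0.33, adjusted p = 0.17). Another, 11750611_a_at, read 4.87, 5.05 and 5.24 at 0 h and 5.41, 5.66 and 5.39 at 3 h, without overlap, and rose by 0.43 (SE 0.11, adjusted p = 0.0109). It kept that call under the 12 alternatives that tested it. Of the pair designed on a transcript for herstatin, a secreted form that binds and inhibits the receptor, 11762165_x_at differed by -0.05 (adjusted p = 0.627) and 11751416_a_at was under the floor. Averaged over its 5 probe sets, the 1 under the floor included, ERBB2 differed by 0.13, with a limma adjusted p of 0.0446.

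ERBB3 encodes HER3, a receptor with a weak kinase that signals through its partners. Its 3 probe sets were under the floor in both groups, the brightest, 11734393_at, at 4.14 ± 0.18 and 4.15 ± 0.30 (n = 3), and this one is assigned to a short secreted form. The means were 3.16 and 3.004 for 11721445_x_at and 2.83 and 2.89 for 11747025_a_at. They were not tested. ERRFI1, also called MIG6, binds the kinase domain of activated receptors and blocks it. It is itself known as an early response gene. Its single probe set, 11715659_s_at, read 9.85, 9.95 and 9.81 at 0 h and 9.69, 9.78 and 9.78 at 3 h. All 3 h values were below all 0 h values, but the difference of -0.12 (SE 0.06, 95% interval -0.27 to 0.03) had an adjusted p of 0.147. It did not pass under any of the 13 alternatives that refitted it, with adjusted p values from 0.0564 to 0.399.

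**Figure D2:**
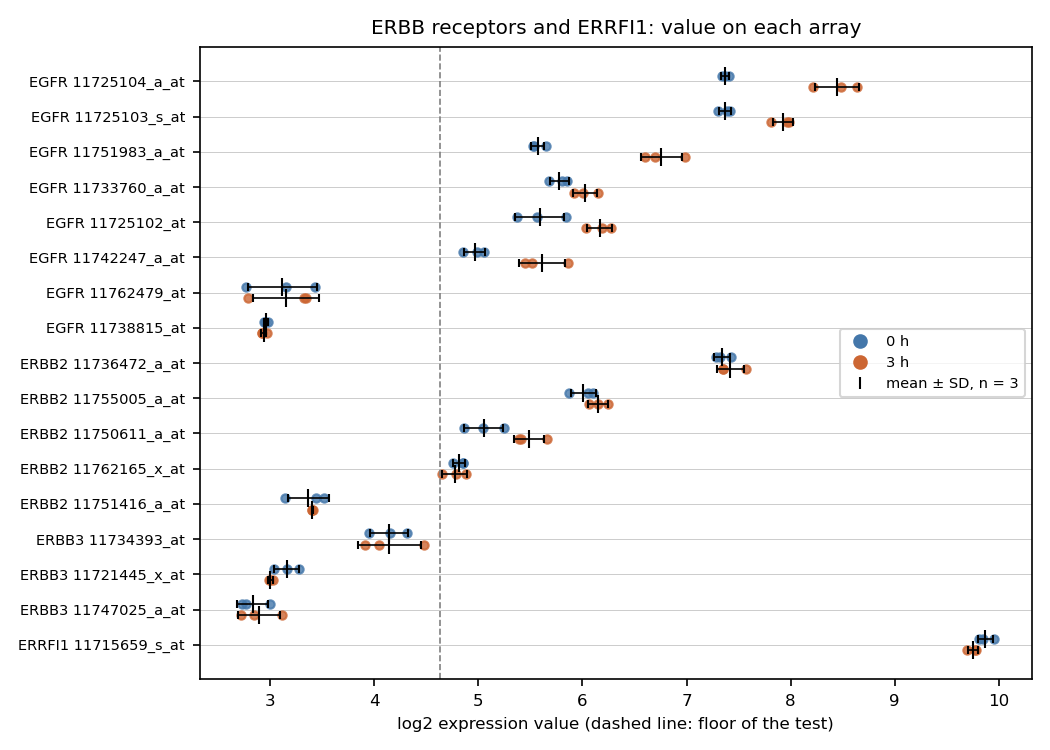
Log2 expression value (horizontal axis) of each probe set of EGFR, ERBB2, ERBB3 and ERRFI1 on each array at 0 h (blue) and 3 h (orange), with black marks for mean ± SD (n = 3) and a dashed line at the floor of 4.64. The 6 EGFR probe sets right of the floor separate upward by 0.24 to 1.19, and the 3 ERBB3 probe sets lie left of it.

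**Figure D3:**
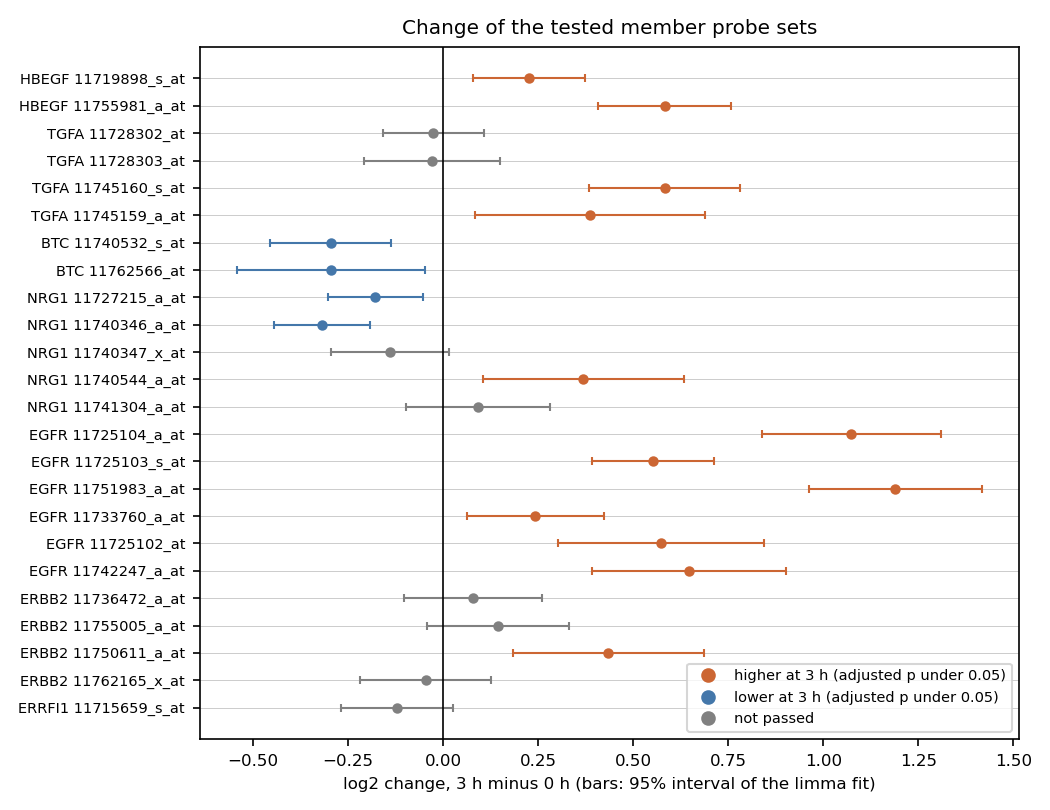
Log2 change, 3 h minus 0 h (horizontal axis), of the 24 probe sets of the family at or above the floor, with bars for the 95% interval of the limma fit and colours for the call at an adjusted p under 0.05. The EGFR and HBEGF intervals all lie right of 0 and the BTC intervals left of it, while TGFA, NRG1 and ERBB2 each have intervals that differ in their call. TGFA 11745159_a_at is drawn although its 0 h mean lies under the floor, and its interval and colour are not read as a result.

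As the member probe set with the largest called change, EGFR 11751983_a_at was set beside 27234 other named probe sets. The most similar over the 6 arrays were those of VAPB (11749369_a_at, Pearson r = 0.9998), EIF4EBP2 (11716403_at, r = 0.9992) and FICD (11754610_a_at, r = 0.9991), with log2 changes of 0.56, 1.15 and 0.56. In all, 259 of them (0.951%) reached at least 0.99. All these points share the same 6 arrays in 2 groups, so the correlations mainly restate the difference between the groups.

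The remaining genes of the pathway were read by their brightest probe set. Of 78 genes on 4 lists 62 were tested, and 21 were higher, 10 lower and 31 did not pass. The called share of 50.0% was near that of all genes read this way, 49.7% of 12221. Upward calls made up 33.9% of the 62 against 19.9%, and downward calls 16.1% against 29.8%. The median log2 change was 0.05.

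Of the remaining ligand and receptor genes 2 of 6 were tested. EGF read 5.25, 5.45 and 5.08 at 0 h and 4.72, 4.98 and 4.72 at 3 h, and it fell by 0.45 (SE 0.11, n = 3, adjusted p = 0.00919). NRG2 differed by 0.13 (adjusted p = 0.406), and EPGN, NRG3, NRG4 and the receptor gene ERBB4 were under the floor. A list of 12 genes held the proteases that release the ligands, their cofactors and an inhibitor of these proteases. Of these 5 rose, 2 fell and 5 did not pass (58.3% called, against 49.7% of all genes read this way; median 0.08). TIMP3, an inhibitor of these proteases, rose by 0.53, ADAM19 by 0.40 and ADAM12 by 0.33, while the protease gene ADAM10, which releases betacellulin and EGF, fell from 6.87 ± 0.03 to 6.48 ± 0.12 (n = 3, adjusted p = 0.00238). ADAM17, the main protease for TGF-alpha and HB-EGF, stood at 0.01 (adjusted p = 0.94) and was named after its value was seen.

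Adaptors and signal carriers had 9 higher, 2 lower and 10 not passing of 21 tested (median 0.10), with 7 listed genes not analysed here. That is 52.4% called, near the 49.7% of all genes read this way. STAT3, a transcription factor that receptors of this family activate, went from 8.26 ± 0.03 to 9.16 ± 0.10 and rose by 0.89 (SE 0.07, n = 3, adjusted p = 4.59e-05). The tyrosine kinase gene SRC rose by 0.73 and the adaptor gene SHC1 by 0.37. SOS2, an exchange factor for RAS, fell by 0.52. Of 27 tested genes for receptor endocytosis, degradation and inhibition 7 rose, 5 fell and 15 did not pass (44.4% called, against 49.7%; median 0.04). EPN1, an endocytic adaptor, rose by 0.88 and PTPN1, a tyrosine phosphatase that acts on EGFR, by 0.74. SOCS4, which targets EGFR for degradation, fell by 0.50, and USP8, which removes ubiquitin from the receptor, by 0.33.

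Transcripts known to follow ERK activity had 6 higher, 2 lower and 5 not passing of 13 tested (61.5% called, against 49.7%; median 0.18). CCND1, the cyclin D1 gene, went from 10.2 ± 0.05 to 11.6 ± 0.12 (n = 3) and rose by 1.38 (adjusted p = 1.7e-05). EGR1 rose by 1.09 and ETV5, an ETS factor, by 0.43. DUSP6, the phosphatase gene that ERK signalling induces and that restrains ERK, fell by 0.37 (adjusted p = 0.000852). The list therefore holds calls in both directions. Other probe sets of these pathway genes and ERK targets were not described here.

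**Figure D4:**
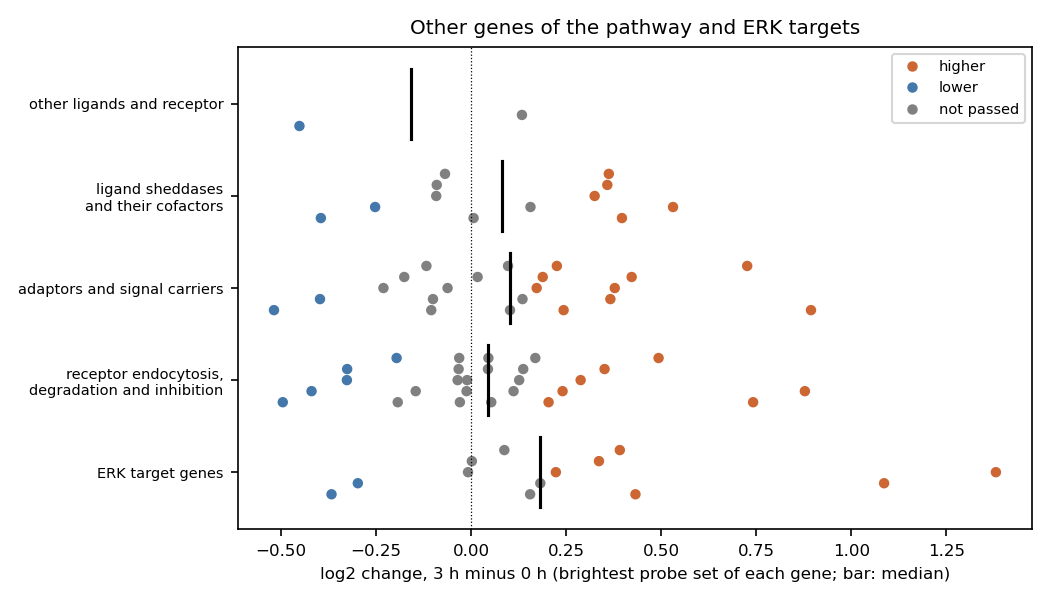
Log2 change, 3 h minus 0 h (horizontal axis), of each tested gene of the 4 pathway lists and of the ERK target list, read by its brightest probe set, with colours for the call at an adjusted p under 0.05 and a black bar for the list's median. Each list has genes on both sides of 0, and CCND1 at 1.38 is the point farthest to the right.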

How the data were processed

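Gene expression was measured on 6 Affymetrix arrays with 3′ IVT labelling. The deposited table holds log2 values that the authors normalized between arrays: MAS5 and RMA appear in the submitters' processing notes with no version, role or order, and the log2 scale was read from the values (medians 5.30 to 5.34, range 1.54 to 14.3). Such values cannot show a change in total RNA. Groups came from the sample titles, and 0 columns of other samples were present. Of 49293 probe sets that are not controls, 44988 have 1 symbol, 1832 several and 2473 none, and all 37 member probe sets matched the gene table of GRCh38.p14 with 0 symbols changed.

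Probe sets with a mean at or above the 40th percentile (log2 4.64) were fitted with lmFit and eBayes of limma 3.58.1 (R 4.3.3), 3 h minus 0 h, with Benjamini-Hochberg adjustment over all 29576 and a threshold of 0.05. On simulated data for this comparison over 29576 probe sets, 95 of 100 changed by 1 (log2) and 55 of 100 changed by 0.5 were called. Of 29376 unchanged ones 3 were called. The simulation drew independent normal noise and changed far fewer probe sets than the 51.4% called in the data. Its rates therefore do not carry over to this fit. The number of arrays limits the precision. All member probe sets are named, and up to 4 genes per list with the smallest p; lists read each gene by its brightest probe set. Members and lists were chosen with earlier results of these data known. Alternatives covered normalization, centring, the floor, the variance model, weighting of arrays, a replicate block, the threshold, a fold minimum, shared probe sets, each array left out and, chosen after seeing the data, a floor in both groups. Promoters are RefSeq's. Figures were drawn with matplotlib 3.10.9.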

Additional observations from a re-analysis of the deposited data

How the results depend on the processing

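The 16 called probe sets of the family counted here include TGFA 11745159_a_at, which reached the floor only through its 3 h values. Counts of the family in this section include it wherever it was tested. Of the 16, 10 kept their direction and call under every alternative that refitted them. The 6 others (HBEGF 11719898_s_at, TGFA 11745159_a_at, BTC 11762566_at, NRG1 11727215_a_at and 11740544_a_at, EGFR 11733760_a_at) lost the call under at least 2 and kept their direction. An alternative chosen after seeing the data, which kept only probe sets with both group means at or above the floor, left out TGFA 11745159_a_at and gave 11 higher and 4 lower. No filter on dim probe sets left 2 lower family probe sets, and a floor at the 60th percentile left 5 higher ones and 1 lower ERK target, with fewer probe sets tested. A threshold of 0.01 gave 7 higher and 2 lower in the family and 11 and 6 among pathway genes. A minimum of 1.5-fold gave 3 and 0 in the family, 4 and 0 among pathway genes, 2 and 0 among ERK targets, and 1987 and 1334 over all probe sets. Without shared or cross-hybridizing probe sets, 4927 of all probe sets were higher and 4667 lower, from fewer tested. With 1 array left out, 2 to 4 family probe sets were lower and 9 to 11 higher. Averaging all probe sets of a gene gave 0.23 for TGFA, without a test here because 11745159_a_at is in the average. For NRG1 the average was 0.015 (not called, limma adjusted p = 0.818), against -0.18 for the brightest probe set. That average holds 3 probe sets under the floor, among them 11755968_a_at at 0.39, so its sign is not read as a direction. No pairing by replicate number was seen: deviations of same-numbered arrays correlated at -0.01, -0.04 and -0.19, and 0 of 6 arrays correlated best with their own number. With 3 arrays per group these values cannot exclude a pairing. With the replicate number as a block, 11 family probe sets were higher and 3 lower, against 12 and 4; the calls lost were TGFA 11745159_a_at (adjusted p = 0.0581) and NRG1 11727215_a_at (0.0639). Dim signal limits EREG and ERBB3, whose levels were not tested.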
